A study of Mus musculus with 6 samples.

Results

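The amino acid and peptide transporters of the solute carrier superfamily were compared between mouse tumors of the duodenum and the cecum. Members were taken by gene symbol from 8 families (Slc1, Slc3, Slc6, Slc7, Slc15, Slc36, Slc38 and Slc43). They came to 48 genes with 73 probe sets, out of 12393 genes that the array names. No probe set used here names a gene of Slc36. Each of 6 tumors (3 duodenal, 3 cecal) was put on 1 Affymetrix array. The sample titles number them as biological replicates 1 to 3 at each site and do not say whether any share a mouse. All the mice carried Apc1638N, a truncating Apc allele under which intestinal tumors form, and all were Rb1 deficient (Rb1 encodes the retinoblastoma tumor suppressor). The labels give neither their age nor how Rb1 was removed, and neither normal tissue nor tumors with intact Rb1 were analysed here. Tumor tissue from the pylorus could be part of the duodenal samples, according to the labels. Values are linear MAS5 intensities, which may be compared between tumors for 1 probe set but not between probe sets.

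Digested protein is absorbed by the epithelium as free amino acids and as short peptides. Members of Slc6, Slc15, Slc1 and Slc38 each work as a single protein and use sodium or proton gradients. Light chains of Slc7 exchange amino acids and reach the membrane bound to a heavy chain of Slc3. The heavy chain Slc3a1 pairs with Slc7a9 at the brush border, and Slc3a2 (CD98) pairs with several light chains, mostly on the basolateral side. Tumor cells also use transporters of glutamine, leucine and cystine for growth and for glutathione synthesis.

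Of the 48 genes, 21 were bright enough to be tested, which means above the 40th percentile of the array (92.4 to 100.6) on at least 3 of the 6 arrays. This level stands in for detection calls. In cecal tumors 4 of the 21 were higher and 2 were lower at a limma adjusted p under 0.05. The 4 were Slc6a14, Slc3a1, Slc7a11 and Slc6a8, and the 2 were Slc7a9 and Slc6a20a. The calls amounted to 28.6% of the tested members, against 10.4% of all 8125 genes tested, of which 5.7% were higher and 4.73% lower. Values of the sites did not overlap for 9 of the 21 (42.9%), against 31.2% of all genes tested. By probe set, 5 of the 34 tested were higher and 2 lower, against 9.3% called either way over the whole table. The median log2 fold (cecal minus duodenal) was -0.03 over the tested members and -0.05 over all genes tested, and the median absolute log2 fold was 0.3 and 0.21. Since 27 members were too dim to enter, these shares describe the tested genes and not the families.

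**Figure D1:**
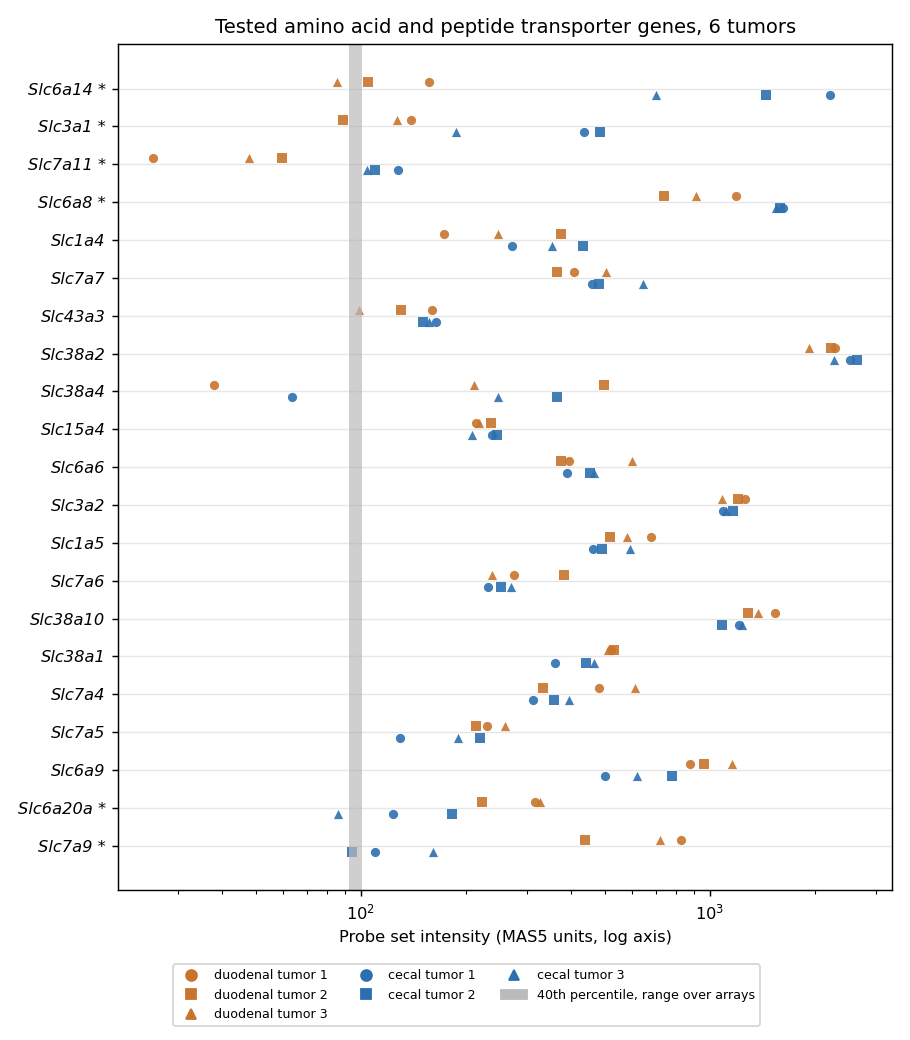
Intensity of each tested transporter gene (rows, ordered by log2 fold) on the 6 arrays, on a log axis. Orange points are duodenal and blue points cecal tumors, shapes give the tumor number, the grey band is the range of the 40th percentile over arrays, and a star marks an adjusted p under 0.05. Slc6a14 and Slc3a1 at the top and Slc7a9 at the bottom are separated between sites, while Slc38a4 spreads widely within both.

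The heavy and light chain of the brush border exchanger for cystine and dibasic amino acids moved in opposite directions. Slc3a1, the heavy chain, had intensities of 139, 89 and 127.3 in duodenal tumors 1 to 3 and of 435.6, 484 and 187.7 in cecal tumors 1 to 3. All cecal values lay above all duodenal ones, with cecal tumor 3 nearest to them. The means were 118.4 ± 26.2 and 369.1 ± 159 (SD, n = 3 each), and the log2 fold was 1.43 ± 0.34 (SE, limma adjusted p = 0.035). Slc7a9, its light chain, gave 827.5, 439.3 and 722.5 in duodenal tumors. In cecal tumors it gave 110, 94.5 and 161.5. The lowest duodenal tumor was still above every cecal tumor. Its means were 663.1 ± 200.8 and 122 ± 35.1, and the log2 fold was -2.28 ± 0.27 (SE, limma adjusted p = 0.00176).

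The call of Slc7a9 was kept in all 15 other settings in which it was tested (adjusted p from 0.000517 to 0.0137). That of Slc3a1 was kept in 7 of 14 settings. It was lost with male mice alone (0.203), with dim probe sets tested too (0.0583), and without any 1 of the arrays but cecal tumor 3 (adjusted p from 0.0666 to 0.135), and without cecal tumor 3 its adjusted p was 0.00406. Slc7a13, another light chain that mouse kidney pairs with Slc3a1, stayed below the level on all arrays. In bulk tissue, fewer cells that use a gene and less RNA per cell cannot be told apart.

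The promoters of Slc3a1 and Slc7a9 are shown because these partners differ between sites in opposite directions. Each window holds 250 bases before and 50 after the transcript start, from RefSeq (GRCm38.p6), on the gene's own strand. Capitals mark matches, on either strand, to the GATA motif AGATAA and the CDX motif TTTATNG. Slc3a1 lies at chr17:85028097-85028396 (plus strand) and the first of the 300-base windows of Slc7a9 at chr7:35448842-35449141 (plus strand).
Slc3a1: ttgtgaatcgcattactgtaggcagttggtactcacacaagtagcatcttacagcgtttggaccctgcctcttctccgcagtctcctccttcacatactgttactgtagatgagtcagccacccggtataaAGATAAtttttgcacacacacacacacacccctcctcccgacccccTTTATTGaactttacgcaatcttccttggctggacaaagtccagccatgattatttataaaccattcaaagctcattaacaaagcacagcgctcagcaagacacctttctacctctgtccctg
Slc7a9: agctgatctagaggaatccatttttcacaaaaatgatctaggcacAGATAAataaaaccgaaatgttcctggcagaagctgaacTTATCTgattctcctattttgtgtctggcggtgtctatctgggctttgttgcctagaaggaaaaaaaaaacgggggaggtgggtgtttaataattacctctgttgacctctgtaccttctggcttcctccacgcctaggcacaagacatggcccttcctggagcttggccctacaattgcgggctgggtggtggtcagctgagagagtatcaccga
The Slc3a1 window held 1 GATA match and 1 CDX match. That of Slc7a9 held 2 GATA matches and 0 CDX matches, and an overlapping later window of Slc7a9 held neither motif. Among all 32851 promoter windows of the table, 11.2% held the GATA and 10.9% the CDX motif. Windows were found for 32 of the 48 members, and of their 51 windows 6 held the GATA and 1 the CDX motif. Of the other called members, the windows of Slc6a14, Slc6a20a and Slc7a11 held 0 matches to either motif, and no window was found for Slc6a8. The matches shown do not overlap each other. A match is a run of letters and was not tested for binding.

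**Figure D2:**
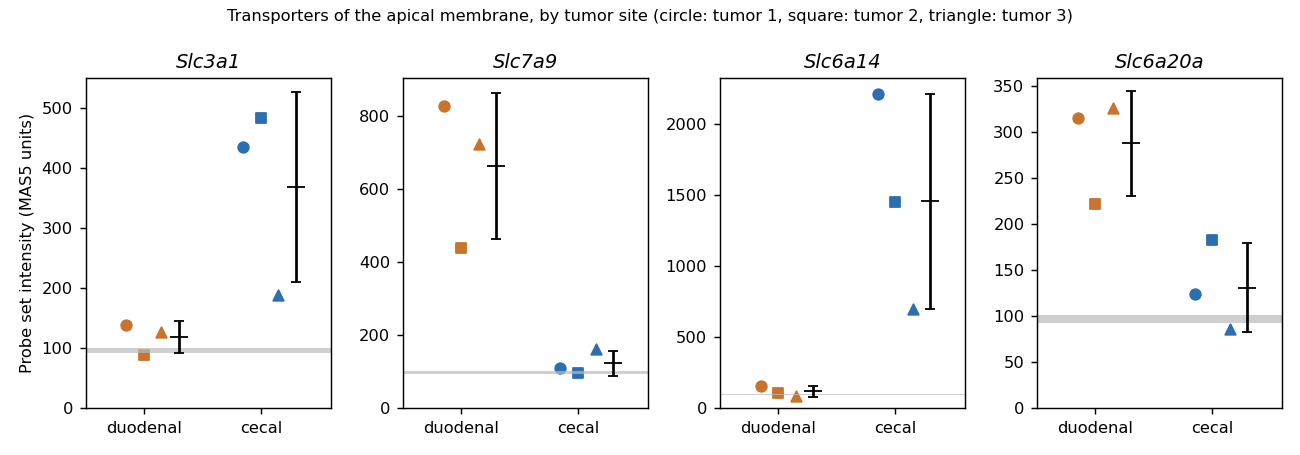
Intensities of Slc3a1, Slc7a9, Slc6a14 and Slc6a20a in duodenal (orange) and cecal (blue) tumors. Points are arrays, shapes give the tumor number, black bars are mean ± SD (n = 3) and the grey band is the range of the 40th percentile. Slc3a1 and Slc6a14 are higher and Slc7a9 and Slc6a20a lower in every cecal tumor than in every duodenal tumor.

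Slc6a14, a sodium- and chloride-coupled carrier of neutral and basic amino acids, had the largest fitted difference among the tested members. Duodenal tumors gave 156.6, 105.2 and 85.5, and cecal tumors 2214.3, 1448.3 and 700.2. Only duodenal tumor 3 was below the level, and the lowest cecal tumor was well above every duodenal one. The means were 115.8 ± 36.7 and 1454.3 ± 757.1, a log2 fold of 3.37 ± 0.39 (SE, limma adjusted p = 0.0016). The call was kept in all 15 other settings in which it was tested, with adjusted p from 0.000114 to 0.0163. A second probe set of Slc6a14 gave a log2 fold of 3.13 ± 0.40 (adjusted p = 0.00248). Without cecal tumor 3, the log2 fold of the first probe set was 3.81.

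Slc6a20a carries proline and other imino acids at the brush border, and it was lower in cecal tumors. Duodenal tumors read 315.6, 222.2 and 326.3, and cecal tumors 123.5, 182.3 and 86.1. No values overlapped, though duodenal tumor 2 and cecal tumor 2 were close to each other. The log2 fold was -1.09 ± 0.26 (SE, limma adjusted p = 0.0397). The call did not survive the loss of duodenal tumor 1 (adjusted p = 0.123), of duodenal tumor 3 (0.124), of cecal tumor 1 (0.122) or cecal tumor 3 (0.0804). Testing dim probe sets as well also ended it (0.0677). Its paralog Slc6a20b was at or below 43.5 on every array. Slc6a18, a carrier of neutral amino acids best known from kidney, was at or below 27.6.

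Slc6a8, the creatine transporter, was at 1186.7, 742.3 and 916.1 in duodenal and at 1620, 1585.7 and 1551.6 in cecal tumors. The cecal values lay close together and above all duodenal ones. Its log2 fold was 0.76 ± 0.17 (SE, limma adjusted p = 0.03). A second Slc6a8 probe set overlapped between sites (log2 fold 0.14 ± 0.20, adjusted p = 0.738). Averaging both probe sets gave 0.45 on the log2 scale, which did not pass (0.168). The call of the first was also lost without any 1 array but duodenal tumor 1 (0.0517 to 0.102) and with male mice alone (0.14).

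Slc6a9, the glycine transporter GlyT1, gave 880.1, 963 and 1159.7 in duodenal tumors and 500.6, 780.9 and 618.1 in those of the cecum. These values did not overlap, but the log2 fold of -0.66 ± 0.19 (SE) missed the threshold (limma adjusted p = 0.067). It passed with the replicate number as a block (adjusted p = 0.0414). A second probe set of Slc6a9 overlapped between sites (log2 fold -0.16, adjusted p = 0.723). Slc6a6, the taurine transporter, had means of 456.6 ± 125.3 and 437.4 ± 40.9 (log2 fold -0.03, 95% interval -0.48 to 0.42).

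The other Slc6 genes carry neurotransmitters or serve mainly neurons. They are Slc6a2 (noradrenaline), Slc6a3 (dopamine), Slc6a4 (serotonin), Slc6a5 (glycine), Slc6a12 (betaine and GABA), Slc6a13 (GABA), Slc6a15 and Slc6a17 (neutral amino acids). All were too dim to be tested, and only Slc6a17 exceeded the level, on 1 array (113.5 in cecal tumor 1). Slc6a4, which enterocytes also use to clear serotonin, reached 92.4 in duodenal tumor 3.

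The heavy chain CD98, encoded by Slc3a2, was at 1260.3, 1206.4 and 1081.6 in duodenal tumors and 1090.2, 1169.3 and 1117.1 in those of the cecum. The sites overlapped, and the log2 fold was -0.07 (95% interval -0.34 to 0.20, limma adjusted p = 0.786). Its light chain Slc7a5 (LAT1), which brings in leucine and other large neutral amino acids, had means of 234.4 ± 22.6 and 179.8 ± 45.7 (log2 fold -0.38, 95% interval -0.85 to 0.09). Slc7a6 and Slc7a7, which export basic amino acids across the basolateral membrane, had log2 folds of -0.21 and 0.30 (adjusted p = 0.568 and 0.382). Slc7a7, whose means were 426.7 ± 72.5 and 529.2 ± 100.1, serves the step that follows uptake by Slc7a9. Slc7a8 (LAT2) was above the level only in duodenal tumors 1 and 2 (119 and 224.5) and was not tested. Slc7a10, a carrier of small neutral amino acids, was at or below 47.4.

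Slc7a11, the light chain xCT that takes up cystine in exchange for glutamate, was dim in every duodenal tumor (25.5, 59.4 and 48). Cecal tumors had 128, 110.3 and 104.4, just above the level. The cecal group was at least 1.13-fold higher, measured against the level of the duodenal arrays. The fitted log2 fold was 1.15 ± 0.27 (SE, limma adjusted p = 0.0326). Slc7a11 entered the test only through the cecal tumors, so the direction follows largely from the filter. The call was lost without any 1 array but duodenal tumor 2 (0.0783 to 0.138), and with male mice alone (0.0705).

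The Slc7a11 window is shown because this gene is a known target of ATF4, the factor of the amino acid response. It lies at chr3:50443564-50443863 (minus strand, GRCm38.p6, RefSeq), and capitals mark matches to the ATF4 element TGATGNAA on either strand.
Slc7a11: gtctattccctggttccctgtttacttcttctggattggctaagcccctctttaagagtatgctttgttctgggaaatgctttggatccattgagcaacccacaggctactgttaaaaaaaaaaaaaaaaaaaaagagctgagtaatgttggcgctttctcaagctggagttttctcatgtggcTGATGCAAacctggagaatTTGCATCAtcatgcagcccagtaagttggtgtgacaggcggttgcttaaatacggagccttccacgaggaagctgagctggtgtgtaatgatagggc
It held 2 matches, on opposite strands. The element was present in 3.97% of all promoter windows and in 5 of the 51 windows of members. The windows of the called members Slc3a1, Slc6a14, Slc6a20a and Slc7a9 held 0 matches to it. Among 21 tested genes of the amino acid response other than transporters, 2 were higher and 1 lower in cecal tumors (14.3%, against 10.4% of all genes tested), with a median log2 fold of 0.08. Eif4ebp1, a repressor of translation, rose from a mean of 410.6 ± 58.4 to 923.7 ± 245.6, with a log2 fold of 1.12 ± 0.20 (limma adjusted p = 0.0119). Atf3, a stress-induced factor, rose by a log2 fold of 0.71 ± 0.17 (adjusted p = 0.0371). Its call was lost without any 1 array but cecal tumor 3 (0.0711 to 0.141), with dim probe sets tested too (0.0649) or male mice alone (0.209). Herpud1, of endoplasmic reticulum protein disposal, fell by 0.61 on the log2 scale (adjusted p = 0.0346). Its call was lost without any 1 array but duodenal tumor 2 (0.0597 to 0.13), with median centring (0.0514) or male mice alone (0.0554). Chac1, which degrades glutathione, was dim in every duodenal tumor and averaged 136.4 ± 45.7 in cecal tumors. It stood at least 1.31-fold higher in the cecal group, without passing (limma adjusted p = 0.0818). Chac1 entered the test only through the cecal tumors, which largely sets its direction.

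**Figure D3:**
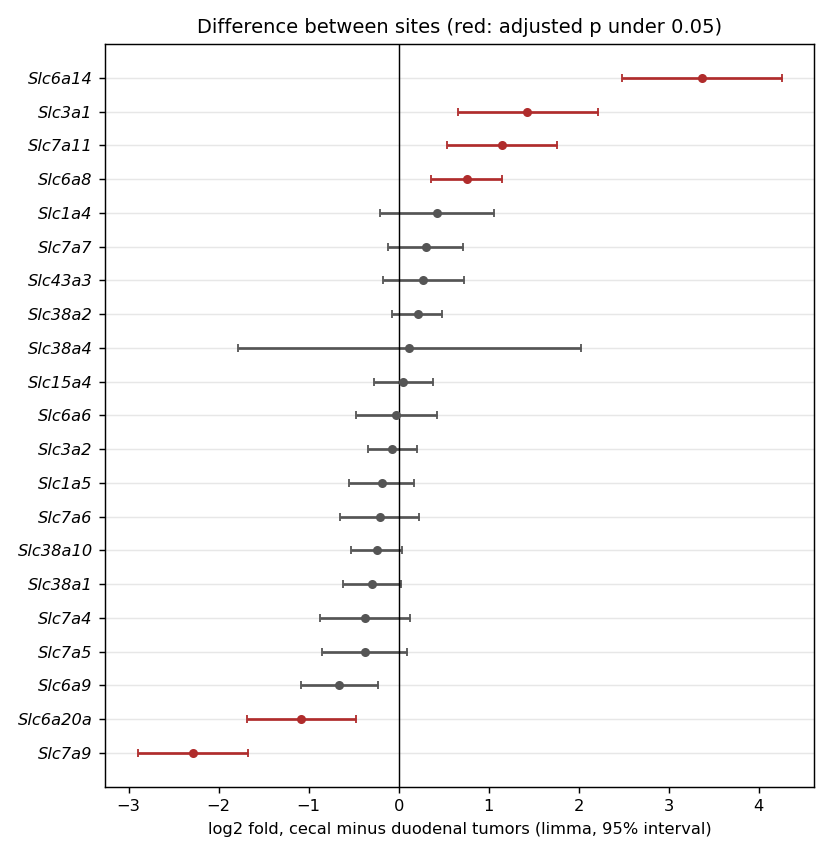
Log2 fold, cecal minus duodenal tumors, of the 21 tested transporter genes with limma 95% intervals (3 against 3 arrays). Red marks an adjusted p under 0.05, positive folds are higher in cecal tumors. The folds run from -2.28 (Slc7a9) to 3.37 (Slc6a14), and most other genes lie close to 0.

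None of the tested Slc38 and Slc1 genes, which carry glutamine, alanine and other neutral amino acids, passed. Slc38a2 (SNAT2), which takes up small neutral amino acids, averaged 2145.8 ± 195.5 in duodenal tumors against 2476.6 ± 194.4 (log2 fold 0.21, 95% interval -0.07 to 0.48). Slc38a1 (SNAT1), a glutamine carrier, gave 522.9, 532 and 511.8 in duodenal tumors and 360.2, 441.9 and 465.7 in those of the cecum. Its values did not overlap, yet the log2 fold of -0.30 ± 0.14 (SE) did not pass (limma adjusted p = 0.242). Slc38a10, a less studied relative, read 1539.3, 1289.4 and 1374.3 in duodenal tumors. Its cecal readings were 1212.7, 1086.1 and 1238.1. All cecal values were lower, and the log2 fold of -0.24 ± 0.12 did not pass either (adjusted p = 0.289). None of its 6 tested probe sets passed. Slc1a5 (ASCT2), the main glutamine carrier of many tumor cells, had 593 ± 81 and 516.4 ± 67.9, which overlapped (log2 fold -0.19, 95% interval -0.55 to 0.17).

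Slc38a3, a glutamine carrier of liver and kidney, was at or below 65.7. Slc38a5, the related SNAT5, was below the level on all arrays, at 40.3, 39.9 and 32.5 in duodenal tumors and 4.4, 6.6 and 6.4 in those of the cecum. These dim values did not overlap, and Slc38a5 passed as lower only when dim probe sets were tested too (limma adjusted p = 0.00836). No fold is given, as both sites were below the level. The glutamate carriers Slc1a1, Slc1a2, Slc1a3 and Slc1a6 were below it on every array too. Slc1a1, the glutamate carrier of the brush border, was at or below 87 in all 3 of its probe sets.

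The peptide carriers gave little signal. Slc15a1 (PEPT1), the brush border carrier of dietary di- and tripeptides, read 26.8, 23.3 and 34.1 in duodenal tumors and 42.5, 28.5 and 17.1 in those of the cecum. Every value was below the level, so no difference could be read. Slc15a4, a lysosomal carrier of histidine and peptides, was the only tested member of its family, at 222.7 ± 12.3 and 230.9 ± 20.2 (log2 fold 0.05, 95% interval -0.28 to 0.38). Slc15a3, its relative in immune cells, exceeded the level only in cecal tumor 3 (117), and the orphan Slc15a5 was at or below 20.7.

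Of the remaining Slc7 genes, the basic amino acid carriers Slc7a1, Slc7a2 and Slc7a3 and the light-chain relative Slc7a12 were below the level on every array. Slc7a4, a relative with no established transport function, had 475.8 ± 139.1 and 355.1 ± 41.6 (log2 fold -0.37, limma adjusted p = 0.362). Slc43a3, now known as a carrier of purine bases, had 129.7 ± 30.6 and 157.2 ± 6.6 (log2 fold 0.27, adjusted p = 0.466). In all, 23 members were below the level on the 6 arrays, with intensities of 1.2 to 92.4, and 4 others exceeded it on only 1 or 2 arrays. A dim probe set does not show that a gene is unused. Among 13 further tested probe sets of 8 member genes, 1 differed in sign from the brightest probe set of its gene (Slc38a10) and 1 lay across the threshold (Slc6a8).

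In the brightest probe sets of some members, tumors of the same number stood apart at both sites. These members were picked after their values were seen. Slc15a2 (PEPT2), a peptide carrier of high affinity, was at 414.6 in duodenal tumor 1 and 218.7 in cecal tumor 1. The other 4 tumors had 32.2, 40.4, 15.8 and 19.5, so only the tumors numbered 1 were above the level. A second Slc15a2 probe set did not show this. It gave 145.5, 64.7 and 87 in duodenal tumors and 15.5, 9.4 and 1.4 in those of the cecum, which separates the sites, and it too was above the level on too few arrays to be tested. Slc38a4, a carrier of neutral and basic amino acids, gave 37.9, 499.2 and 211.6 in duodenal tumors and 63.4, 366.2 and 247.5 in those of the cecum. At both sites tumor 2 was highest and tumor 1 lowest, in a second probe set too.

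Slc1a4 (ASCT1), a carrier of alanine, serine and cysteine, had that order in its brightest probe set, with 173.4, 374.8 and 248.2 in duodenal tumors and 272, 433.3 and 352.3 in those of the cecum. Its other 2 tested probe sets had tumor 1 lowest at both sites but tumor 3 highest, except for duodenal tumor 2 in the first of them (367.5, against 280.5 in tumor 3). With the replicate number as a block, the standard error of the log2 fold fell from 0.83 to 0.22 for Slc38a4 and from 0.28 to 0.16 for Slc1a4. Neither gene passed with it (limma adjusted p = 0.798 and 0.136). The tumors numbered 2 had 0 of 3 Y-linked genes above the level, whereas the other 4 tumors had 3 of 3.

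**Figure D4:**
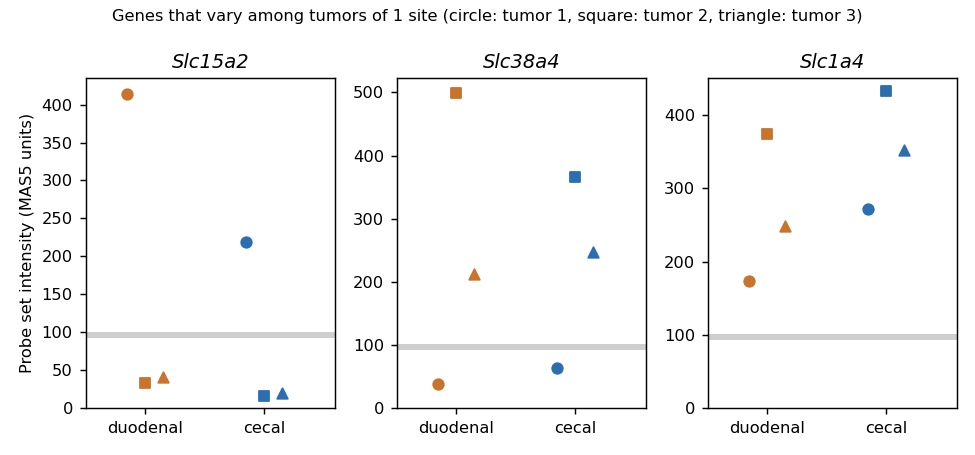
Intensities of the brightest probe sets of Slc15a2, Slc38a4 and Slc1a4 in the 6 tumors. Circles are tumors 1, squares tumors 2 and triangles tumors 3, and the grey band is the range of the 40th percentile. For Slc15a2 both circles stand above the band, and for Slc38a4 and Slc1a4 the squares are highest and the circles lowest at both sites.

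Genes that act before, beside and after these transporters were examined as lists. Among brush border peptidases, which release amino acids and short peptides at the cell surface, 3 of 7 tested were higher in cecal tumors and 0 lower (42.9% called, against 10.4% of all genes tested, median log2 fold 1.07). Mep1a, a meprin, averaged 106.7 ± 19.8 in duodenal and rose to 1954.2 ± 925.2 in cecal tumors, a log2 fold of 3.91 ± 0.32 (limma adjusted p = 0.000314). Like Slc6a14, it was highest in cecal tumor 1 (2938.3) and lowest of the cecal tumors in tumor 3 (1102). Dpp4, a dipeptidyl peptidase dim in the duodenal group, stood at least 2.62-fold higher in the cecal group (adjusted p = 0.00176). It entered the test only through the cecal tumors, so its direction follows largely from the filter. Mep1b, the other meprin, also rose (log2 fold 1.91 ± 0.44, adjusted p = 0.0307), and its call depended on duodenal tumor 3 (0.0772 without it) and on cecal tumors 1 (0.123) and 2 (0.1), and was lost with male mice alone (0.105). Enpep, an aminopeptidase, did not pass at a log2 fold of 1.07 (adjusted p = 0.16). Mme and Xpnpep2 were below the level on all arrays and were not tested. Mme read 77, 32.6 and 34.4 in duodenal tumors and 0.8, 6.6 and 0.8 in cecal ones, while Xpnpep2 was higher in every cecal tumor. With dim probe sets tested too, 1 gene of the list was lower.

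Of 15 intracellular peptidases 1 was lower and 0 higher (6.67%, against 10.4% of all genes tested). This was Pepd, which splits dipeptides that end in proline. It fell from 1032.5 ± 151 to 645.4 ± 81.4, a log2 fold of -0.66 ± 0.16 (limma adjusted p = 0.0362). Its call was lost without any 1 array but duodenal tumor 2 or cecal tumor 3 (0.103 to 0.137), and with quantile normalization (0.0517), median centring (0.0589) or male mice alone (0.0803). Thop1, Lap3 and Dpp7 did not pass (adjusted p = 0.0826, 0.124 and 0.139).

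Of 17 tested genes of glutamine, glutamate and arginine metabolism, 3 were lower and 1 higher in cecal tumors (23.5%, against 10.4% of all genes tested, median log2 fold 0.11). The 3 became 1 when dim probe sets were tested too and under median centring. Cps1, the entry enzyme of the urea cycle, had 1679.6, 1309.9 and 426.3 in duodenal tumors and 94.7, 122.1 and 136.6 in those of the cecum (log2 fold -2.91 ± 0.44 SE, limma adjusted p = 0.0061). Oat, which links ornithine to proline and glutamate, fell by 0.81 on the log2 scale (adjusted p = 0.0379), and lost its call without any 1 array but duodenal tumor 2 or 3 (0.0757 to 0.134). It also lost it with dim probe sets tested too (0.0561), median centring (0.0521), no intensity trend (0.0537) or male mice alone (0.138). Gpt2, an alanine aminotransferase, was dim in every cecal tumor and at least 1.88-fold higher in the duodenal group (adjusted p = 0.0491). It entered the test only through the duodenal tumors, which largely sets its direction. Its call was kept in 5 of 14 other settings, and lost without any 1 array but duodenal tumor 2 (0.0662 to 0.158), with an offset of 64 (0.052), with dim probe sets tested too (0.0816), and with quantile normalization (0.06) or median centring (0.0586). Arg1, which splits arginine, rose from 130.9 ± 45.1 to 423.3 ± 136.8, a log2 fold of 1.59 ± 0.30 (adjusted p = 0.0153), and lost its call without cecal tumor 2 (0.0607) and with male mice alone (0.0634).

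Among 7 amino acid carriers of other Slc families, 1 was higher and 0 lower (14.3%, against 10.4% of all genes tested). Slc25a22, a mitochondrial glutamate carrier, rose from 266.1 ± 40 to 556.7 ± 56.9, a log2 fold of 1.03 ± 0.16 (limma adjusted p = 0.00622), a call lost with male mice alone (0.0521). Slc25a15, Slc25a13 and Ctns did not pass (adjusted p = 0.175, 0.339 and 0.603). Of 8 membrane partners and ion-coupling genes, 1 rose and 1 fell (25%, against 10.4% of all genes tested). Slc9a3r1, a brush border scaffold, rose by a log2 fold of 0.60 ± 0.15 (adjusted p = 0.043), a call lost without any 1 array but cecal tumor 3 (0.0888 to 0.122), with dim probe sets tested too (0.0618), no intensity trend (0.0655) or male mice alone (0.184). Cd44, a partner of Slc7a11 at the membrane, fell by 0.71 on the log2 scale (adjusted p = 0.0215), a call lost without duodenal tumor 1 or 3 or cecal tumor 1 or 2 (0.0683 to 0.0885) and with male mice alone (0.0583). Sgk1 and Sgk3, kinases that act on transporters, did not pass at log2 folds of 0.51 and -0.68 (adjusted p = 0.105 and 0.13).

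In amino acid sensing by mTORC1, 1 of 20 tested genes was lower and 0 higher (5%, against 10.4% of all genes tested called and 4.73% lower, median log2 fold -0.13). The 1 was Lamtor3, a subunit of the lysosomal Ragulator complex, which fell by 0.58 on the log2 scale (limma adjusted p = 0.0263), a call lost without any 1 array but cecal tumor 1 (0.0606 to 0.0891), with median centring (0.0514) or male mice alone (0.147). Sesn3, Flcn and Lamtor4 had log2 folds of -0.41, -0.36 and -0.24 and did not pass. Of 11 genes of branched-chain and tryptophan metabolism 1 was lower (9.09%, against 10.4% of all genes tested) and 0 had a positive fold (median -0.46). Tdo2, which starts tryptophan breakdown, read 288, 148.7 and 848 in duodenal tumors and was dim in every cecal tumor, a difference of at least 3.45-fold (adjusted p = 0.00478). It entered the test only through the duodenal tumors, which largely sets its direction. Bcat2, Dbt and Bckdhb, of branched-chain amino acid breakdown, had log2 folds of -0.88, -0.67 and -0.52 and did not pass (adjusted p = 0.0648, 0.0691 and 0.13).

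Several marker lists of tissue and cell types held genes that differed between the sites. Their counts are out of the genes on the array, tested or not. Of all 8125 genes tested, 10.4% were called, 5.7% higher and 4.73% lower in cecal tumors. All 9 stomach and pylorus genes were lower in cecal tumors, with summed intensities of 65097 to 94195 in duodenal and 1235 to 2106 in cecal tumors. Of these, 7 were dim in every cecal tumor and entered the test only through the duodenal tumors, which largely sets their direction. Of 9 epithelial genes 3 were higher in cecal tumors (75258 to 79748 against 60371 to 67288), and of 7 large intestine genes 5 were higher, with all 7 below the level on every duodenal array. Those 5 entered the test only through the cecal tumors, which largely sets their direction. The large intestine sum was lowest of the cecal tumors in tumor 3 (14573, against 19520 and 20687), as Slc6a14 and Slc3a1 were. Within the list, Aqp8, Cyp2c55, Car1, Car4 and Hoxb13 were lowest in cecal tumor 3. Hoxb6 was highest there (815.3), and Hoxd9 (404.9) was lowest in cecal tumor 1 (324.9). This order was seen after the fact, and a link to the transporters was not tested. Of 9 proximal small intestine genes 4 were lower in cecal tumors (Fabp1, Gata4, Mttp and Pdx1), while Fabp2 was higher in every cecal tumor without passing (limma adjusted p = 0.0811). The 4 were dim in every cecal tumor and entered the test only through the duodenal tumors, which largely sets their direction. The sums of the 9 genes overlapped between sites, at 10036, 2869 and 10319 in duodenal tumors against 6798, 6356 and 2478. The lowest cecal sum was that of tumor 3, as for the large intestine list. Duodenal tumor 2 had the lowest duodenal sum, and Slc7a9 and Slc6a20a were lowest of the duodenal tumors there. So were Slc3a1 (89) and Slc6a8 (742.3), which were higher in cecal tumors, while Slc6a14 and Slc7a11 were not. Without duodenal tumor 2 the log2 fold of Slc7a9 was -2.55. Of 6 fibroblast genes 1 was higher (Col3a1), with sums of 11462 to 14730 in duodenal and 16006 to 20331 in cecal tumors. Of 7 neuron and enteric glia genes 1 was lower (S100b), with sums of 400 to 500 against 229 to 271. S100b alone in this list was bright enough to be tested, and it entered only through the duodenal tumors. It read 119.8, 161.9 and 223.5 in duodenal tumors and 20.9, 21.2 and 14.6 in cecal ones. Among the genes dim on all arrays, Prph was lower and Stmn2 higher in every cecal tumor. Of 8 Paneth and goblet cell genes 3 were higher and 1 lower in cecal tumors. Of 9 enteroendocrine genes 1 was higher in cecal tumors (Gcg, at least 2.94-fold, limma adjusted p = 0.0122). Gcg entered the test only through the cecal tumors, which largely sets its direction. The enteroendocrine sums overlapped, at 5344, 1008 and 10175 in duodenal tumors and 2268, 1519 and 2394 in cecal ones. Of 10 exocrine pancreas genes, 8 were below the level on all duodenal arrays and 1 was lower in cecal tumors (Cela1). Only Cela1 and Clps of that list were tested. The part of these tissue differences in the transporter results was not tested.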

How the data were processed

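RNA of 6 tumors was hybridised to 1 Affymetrix array each. The authors deposited a linear intensity per probe set. The submitters' processing notes name MAS5, of unstated version, and nothing was normalized further here. Sample titles gave the site and the replicate number. Gene names are those of the platform annotation, in which 20380 of 22690 probe sets name 1 gene, and all 48 members were found in RefSeq (GRCm38.p6), 0 with another symbol. The 64 control probe sets were left out.

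An offset of 16 was added before taking log2 of the intensity, so folds of dim genes are understated, and 13866 probe sets above the 40th percentile on at least 3 arrays (2 where a site had only 2) were tested with limma 3.58.1 in R 4.3.3, with an intensity trend, two-sided and Benjamini-Hochberg adjusted over all of them. A gene was represented by its probe set of highest mean intensity. Where a site was below the level on all arrays, the fold is a bound against that level. It sets the geometric mean of the other site's values against the geometric mean of the levels of the dim site's arrays. The means printed with SD are arithmetic. The fit was also run on simulated data with noise drawn independently for each array. Those data lacked the shared deviations of same-numbered tumors described below, so they say nothing on how these affect the fit. Members that passed, that were tested without overlap, or that ranked among the 12 of highest mean intensity (a rule for the choice, not a comparison of levels) are described with their values, the others by name with ranges or levels, and the named genes of each list are up to 4 with the smallest p. The members and lists were chosen with earlier results of these data known. The alternatives were other offsets, filters, normalizations and variance models, a replicate block, male mice alone, the mean of a gene's probe sets, and leaving out each array. Same-numbered tumors of the sites deviated together from their site means (r = 0.274, 0.299 and 0.203 over probe sets), and other pairs did not (r from -0.2 to -0.0261). Deviations from a site mean cancel within the site, so the negative values of the other pairs follow in part from the positive ones. The numbers were therefore used as a replicate block in 1 alternative fit, on the evidence of the data alone, since no label names a shared litter or day. The main fit had no block, so its standard errors and p values treat the tumors as unpaired. With the block, 12.7% of the genes tested were called, against 10.4% without it. Sex was read from 3 Y-linked genes. Male mice alone means the tumors numbered 1 and 3, which leaves 2 arrays per site. Figures were drawn with Python 3.11.15 and matplotlib 3.10.9.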

Additional observations from a re-analysis of the deposited data

How the results depend on the processing

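With 3 arrays per site, most calls among these transporters sat near the threshold. Of the 6 called members, Slc6a14 and Slc7a9 kept their calls in every alternative run. The counts of 4 genes higher and 2 lower (5 and 2 by probe set) became 2 and 1 (3 and 1) with a 60th percentile filter, under which Slc3a1, Slc6a20a and Slc7a11 were too dim to be tested. With male mice alone (2 arrays per site), 1 gene and 2 probe sets were higher. Over the whole table that setting called 531 genes (6.48%), against 847 (10.4%) with all arrays. The part of sex in the calls lost there was not tested. Leaving out 1 array gave 1 to 2 genes higher and 1 to 2 lower, and 2 to 3 probe sets higher and 1 to 2 lower. With the replicate block, Slc6a9 joined the genes that were lower (adjusted p = 0.0414), so that 3 were, and no other member's call changed. The log2 fold of Slc6a6, -0.03, turned to 0.01 with quantile normalization, to 0.02 with median centring, and ranged from -0.16 to 0.18 when 1 array was left out, never past the threshold. Over the whole table, leaving out 1 array gave 428 (without cecal tumor 1) to 848 genes called (without duodenal tumor 2), against 847. Signal near the 40th percentile limits what can be said of the 27 members that were not tested.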
